A study of Homo sapiens with 6 samples.

Results

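Interferons are secreted proteins by which cells signal viral and inflammatory danger to themselves and their neighbours. Type I interferons (the interferon alphas encoded by genes such as IFNA1, and interferon beta, IFNB1) bind a receptor made of IFNAR1 and IFNAR2, interferon gamma (IFNG) binds IFNGR1 and IFNGR2, and the type III interferons (IFNL1 among them) bind IFNLR1 together with IL10RB. These receptors signal through JAK kinases and STAT factors to switch on interferon-stimulated genes, and an interferon response is a known feature of promyelocytic leukaemia cells maturing under retinoic acid.

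The 8 genes IFNA1, IFNB1, IFNG, IFNL1, IFNAR1, IFNAR2, IFNGR1 and IFNGR2 were followed through every probe set annotated to them. This gave 15 probe sets of 1 gene (4 for the ligands and 11 for the receptors) and 1 more annotated to IFNA13 and IFNA1 together, out of 54675 on the array and 41091 with 1 gene after control probe sets were left out. The samples were NB4 cells, a human acute promyelocytic leukaemia line with the PML-RARA fusion, either untreated (0 h) or kept in 1e-06 M all-trans retinoic acid (ATRA) for 4, 12, 24, 48 or 72 h. Each time had 1 array of total RNA, 6 in all, without replicates. Time in ATRA and time in culture cannot be told apart, and the untreated array was the only control. In RNA from whole cultures, more cells carrying a transcript and more transcript per cell cannot be told apart either.

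Values are log2 probe set summaries, and levels of different probe sets are not on one scale of abundance. Testing was limited to probe sets that reached 3.66, the overall median, on at least 1 array, as 25189 of those with 1 gene did. Of the 15 member probe sets 14 were kept, all but that of IFNG, and IFNA1, IFNB1 and IFNL1 passed only through the 72 h array. A fold with an untreated value under 3.66 is computed from 3.66 and given as "at least". Array medians lay between 3.64 and 3.69, while the spiked bioC control averaged 8.01 and 8.11 on the untreated and 12 h arrays and 6.88 to 7.17 on the others. The promyelocyte marker MPO, myeloperoxidase, read 12.9 at 0 h (203949_at), whereas ELANE and KIT did not reach 3.66 on any array.

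IFNA1 and IFNB1 were read above the filter on the 72 h array alone. IFNA1 read 2.31, 2.35, 2.50, 2.76, 2.89 and 7.42 (208375_at) on the untreated, 4, 12, 24, 48 and 72 h arrays. IFNB1 read 2.44, 2.41, 2.68, 2.43, 2.55 and 6.29 (208173_at). For each gene the first 5 arrays were under the filter and the 72 h array stood alone above them. IFNA1 was at least 13.5-fold and IFNB1 at least 6.16-fold higher at 72 h than untreated, with log2 differences of 5.11 and 3.85 as measured. Single arrays allow no error for these folds.

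The promoters of the type I genes whose own probe sets were higher by over 3 on the log2 scale at 72 h are shown. These probe sets were picked by that difference, so the 72 h rise they share is not a separate result. Each sequence is the 250 bases before the start of the gene, from RefSeq on GRCh38.p14, written 5′ to 3′ on the gene's strand. Capitals mark matches on either strand to AANNGAAA, a core of sites of the interferon regulatory factor (IRF) family, or to GGANNTTCC, the core of a form of the NF-kappaB site. The windows are chr9:21440189-21440438 (plus strand) for IFNA1, chr9:21077943-21078192 (minus strand) for IFNB1, chr9:21385399-21385648 (minus strand) for IFNA2 and chr9:21408867-21409116 (plus strand) for IFNA8.
IFNA1: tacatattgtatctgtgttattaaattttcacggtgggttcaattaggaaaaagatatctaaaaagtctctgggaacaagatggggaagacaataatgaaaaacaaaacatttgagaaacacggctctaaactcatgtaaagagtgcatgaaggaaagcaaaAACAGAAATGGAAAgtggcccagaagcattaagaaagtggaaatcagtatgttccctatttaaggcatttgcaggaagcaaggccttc
IFNB1: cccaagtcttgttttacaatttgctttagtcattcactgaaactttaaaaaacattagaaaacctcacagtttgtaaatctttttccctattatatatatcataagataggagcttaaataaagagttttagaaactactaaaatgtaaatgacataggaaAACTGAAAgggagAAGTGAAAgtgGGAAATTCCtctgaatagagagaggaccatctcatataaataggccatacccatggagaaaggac
IFNA2: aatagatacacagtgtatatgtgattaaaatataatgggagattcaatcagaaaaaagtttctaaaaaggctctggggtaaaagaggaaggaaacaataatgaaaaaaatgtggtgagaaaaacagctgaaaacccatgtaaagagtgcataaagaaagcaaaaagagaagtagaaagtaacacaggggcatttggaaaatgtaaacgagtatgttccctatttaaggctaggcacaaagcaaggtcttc
IFNA8: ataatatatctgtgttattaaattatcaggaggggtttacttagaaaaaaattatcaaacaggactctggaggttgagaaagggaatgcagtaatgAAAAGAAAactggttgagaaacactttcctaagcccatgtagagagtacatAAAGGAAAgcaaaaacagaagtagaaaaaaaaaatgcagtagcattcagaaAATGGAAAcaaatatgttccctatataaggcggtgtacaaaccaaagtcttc

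The IFNB1 window holds 2 matches to AANNGAAA and 1 to GGANNTTCC within its last 100 bases, a stretch known as the virus-inducible enhancer of this gene. IFNA1 has 2 overlapping matches to AANNGAAA, IFNA8 has 3, and these letters do not occur in the IFNA2 window. Among the other members AANNGAAA occurs 3 times in the window of IFNL1 and 1 time in that of IFNG. It is not in those of IFNAR1, IFNGR1 or IFNGR2. GGANNTTCC occurs 2 times in the window of IFNGR2 and is not in those of IFNL1, IFNG, IFNAR1 or IFNGR1. Of 35116 RefSeq promoter windows of the same length, 20.3% hold AANNGAAA and 3.84% hold GGANNTTCC, so the first is common. A match is a description of the sequence and does not show that a factor was bound.

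**Figure D1:**
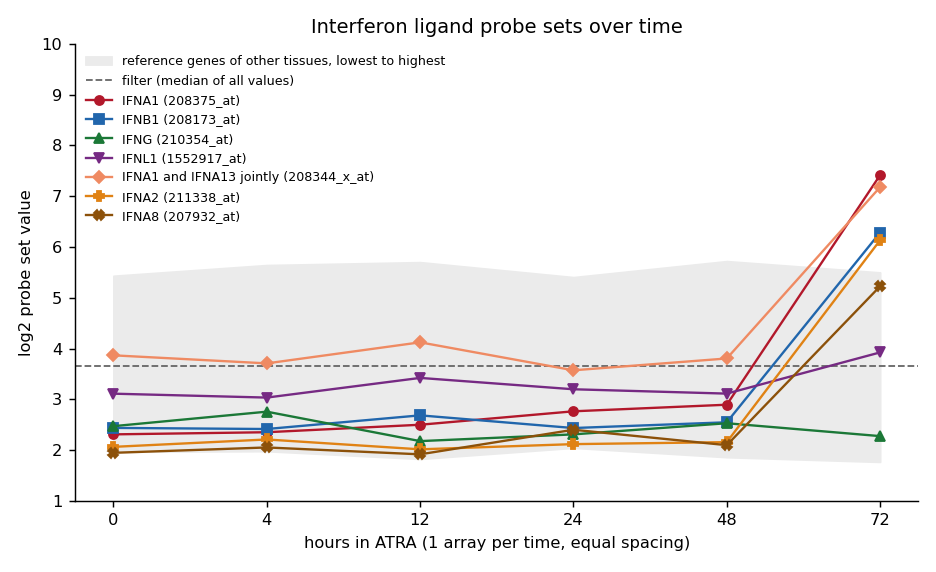
Log2 values of interferon ligand probe sets (y axis) on the 6 arrays by hours in ATRA (x axis, equally spaced), with 1 point per array, the filter at 3.66 as a dashed line and the range of 46 probe sets of genes restricted to other tissues in grey. IFNA1, IFNB1, IFNA2, IFNA8 and the joint probe set of IFNA1 and IFNA13 lie above all their earlier values on the 72 h array, while IFNG stays between 2.18 and 2.76.

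The joint probe set is annotated to IFNA13 and IFNA1, which encode the same mature protein and are near-identical in sequence. It read 3.87, 3.71, 4.12, 3.57, 3.80 and 7.18 in time order (208344_x_at). As with IFNA1 alone, the 72 h array was apart from the other 5, here by 3.06 above the highest of them. It is an x_at probe set, a class prone to reading related transcripts, and cannot assign its signal to 1 gene.

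At 72 h IFNA1 exceeded the highest of the other 5 arrays by 4.52 and IFNB1 by 3.60. Such a difference reached 2-fold in 4.07% of kept probe sets and 8-fold in 0.337%. This measure was chosen after the values had been seen, and both genes were kept only through the 72 h array, so these shares are a description and no support. With either shift of the arrays to equal spiked controls it was 4.19 and 4.32 for IFNA1 and 3.40 and 3.12 for IFNB1. The first of these shifts used all hybridisation controls and the second left out bioC.

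IFNL1, a type III ligand, stayed close to the filter. Its probe set read 3.11, 3.03, 3.42, 3.20, 3.11 and 3.92 in time order (1552917_at), and only the last value was above 3.66. The 72 h array was the highest, by 0.50 over the 12 h array, and at least 1.20-fold above untreated. IFNG, the type II interferon made mainly by T and NK cells, read 2.47, 2.76, 2.18, 2.31, 2.53 and 2.27 (210354_at). It was under the filter on every array and was lower by 0.20 at 72 h than untreated, so no signal above background was seen. A gene under the filter may still be transcribed at a level the probe set does not register.

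The straight-line trend over the 6 times, tested with limma across all 25189 kept probe sets, called none of the 3 kept ligand probe sets. The slopes were 0.78 ± 0.26 per step for IFNA1 (SE, limma adjusted p = 0.0744), 0.55 ± 0.22 for IFNB1 (limma adjusted p = 0.124) and 0.12 ± 0.06 for IFNL1 (limma adjusted p = 0.231). A line describes a single late step poorly, because the step itself enters the residual spread.

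Other interferon genes were examined the same way, with 21 ligand probe sets in all, of which 3 are annotated to several genes and 8 are x_at probe sets. None differed 2-fold from untreated at 4, 12, 24 or 48 h, where the largest difference in size was 0.61. At these times 1.84%, 2.16%, 3.15% and 5.58% of all kept probe sets were 2-fold higher and 2.55%, 1.92%, 2.63% and 4.93% were lower. At 72 h 6 were 2-fold or more higher and 0 lower, against 10.8% and 12.8% of all kept probe sets. Besides those of IFNA1, IFNB1 and the joint probe set, these were IFNA2, IFNA8 and IFNA21. All but the joint probe set passed the filter only through the 72 h array. The 21 also include probe sets that were not kept or have several genes, so these shares are a description and no support.

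IFNA2, an interferon alpha used as a drug, read 2.06, 2.21, 2.01, 2.12, 2.16 and 6.13 (211338_at) and was at least 5.55-fold higher at 72 h. IFNA8 read 1.94, 2.05, 1.92, 2.40, 2.10 and 5.23 (207932_at) and was at least 2.96-fold higher. In each of them the 72 h array alone was above the filter. IFNA21 (211145_x_at) was higher by 1.02, at least 1.53-fold, but exceeded the highest other array by only 0.75, so its place among the 6 rests on the threshold.

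The remaining interferon alpha probe sets differed less at 72 h. Those of IFNA7 (0.91), IFNA14 (0.89) and IFNA17 (0.78) were higher but under 2-fold, and all are x_at probe sets. Those of IFNA4 (0.33), IFNA5 (0.20), IFNA10 (0.07) and IFNA16 (-0.26) lay within 1.5-fold of untreated. A probe set annotated to IFNA6 and IFNA5 together was higher by 0.69. The interferon alpha genes share long stretches of sequence, so an x_at probe set can read a relative, and the genes behind these smaller values cannot be told apart.

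Probe sets of IFNW1 (0.07), IFNK (0.21), IFNE (-0.23) and IFNL2 (0.22), which encode interferons omega, kappa, epsilon and lambda 2, were under the filter on all arrays. The probe set of IFNL3 and IFNL2 together was higher by 0.47, also under the filter. The 72 h signal was therefore seen in probe sets of a few interferon alpha genes and of IFNB1 among the ligands measured. Whether the probe sets of IFNA1, IFNA2 and IFNA8 read each other's transcripts was not tested.

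**Figure D2:**
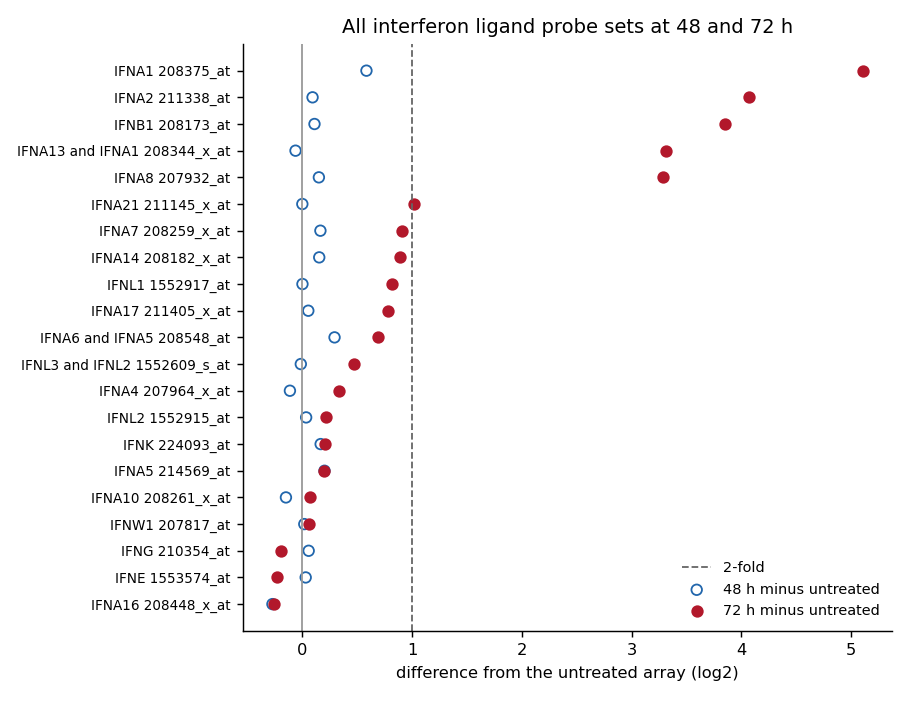
Difference from the untreated array on the log2 scale (x axis) at 48 h (open circles) and 72 h (filled circles) for all 21 interferon ligand probe sets (y axis), 1 array per time, with a dashed line at 2-fold. All 48 h circles lie under the line, and 6 probe sets are beyond it at 72 h, led by IFNA1 at 5.11.

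The signals of genes restricted to other tissues were used as a guide to background. Their 46 probe sets (25 genes such as ALB and INS, for albumin and insulin) had medians of 3.05 to 3.32 on the 6 arrays and reached 5.43 in untreated cells and 5.50 at 72 h. None of them was 2-fold or more above untreated on any ATRA array. The 72 h values of IFNA1, IFNB1 and IFNA2 lay above this whole range. Those of IFNA8 (5.23), IFNA21 (4.28) and IFNL1 (3.92) lay within it. On each array 14 to 20 of the 46 reached the filter, so passing it does not set a value apart from background.

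Markers of other cells that make interferons were also read. CLEC4C, a marker of plasmacytoid dendritic cells, did not exceed 2.89 on any array, and among the 14 probe sets of that marker list 2 were at or above the filter at 72 h, as in untreated cells. IL3RA, the interleukin 3 receptor on this list, was the 1 that was 2-fold higher at 72 h, at 5.68 against 4.65. SPIB, also on this list, was 2-fold higher at 4 and 12 h, at 5.32 and 5.00 against 3.95 (205861_at), but not at 72 h. The T cell receptor component CD3D was 3.98 untreated and 3.87 at 72 h. GNLY, a granule protein of T and NK cells, rose from 3.15 to 4.12 (205495_s_at), the only probe set of that list with a called rise. Its other probe set, 37145_at, was under the filter on every array. NCAM1, of the same list, had a called fall in 227394_at, from 5.12 to 3.42 (limma adjusted p = 0.0170). Of 19 T and NK cell probe sets 10 reached the filter untreated and 8 at 72 h, PRF1 and NKG7 with the highest values. At 72 h 0 were 2-fold above untreated, while at 4, 12 and 24 h 1, 2 and 2 were, all of PRF1. Its 214617_at read 8.05 untreated and 10.2 at 12 h. Of 7 monocyte probe sets 1 reached the filter on each array, that of CSF1R, the receptor of a macrophage growth factor, which read 5.20 untreated and 6.51 at 72 h without a called trend. CD14, another monocyte marker, was 3.37 and 3.43. All VCAN probe sets were under the filter on every array. Of these 221731_x_at differed most, at 2.23 and 3.07, and the others differed by -0.08 to 0.21. Their part in the ligand values was not tested.

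Among the receptors, IFNGR1, the ligand-binding chain of the interferon gamma receptor, rose over the series in uneven steps. Its probe set 202727_s_at read 8.17, 8.54, 8.93, 9.08, 9.79 and 10.9 in time order. A second, 211676_s_at, read 6.67, 6.71, 7.63, 7.77, 8.40 and 9.64. Both were higher at each later time, as were 2.31% of all kept probe sets. The 72 h values were 6.44- and 7.82-fold those of untreated cells.

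The third IFNGR1 probe set, 242903_at, read 3.36, 4.38, 3.45, 4.46, 5.28 and 6.18, at least 5.75-fold higher at 72 h. Its untreated and 12 h values lay under the filter, and these are also the arrays of the higher bioC signal. The part of that signal in its early values was not tested.

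The IFNGR1 trends passed the test in all 3 probe sets. The slopes were 0.50 ± 0.06 per step for 202727_s_at (SE, limma adjusted p = 0.00402), 0.57 ± 0.07 for 211676_s_at (limma adjusted p = 0.00370) and 0.51 ± 0.10 for 242903_at (limma adjusted p = 0.0172). The call on 211676_s_at held in all 14 alternatives that gave it a value, with adjusted p from 4.40e-05 to 0.0388. That on 202727_s_at held in 14 of 15 and was lost within the 4, 24, 48 and 72 h arrays (limma adjusted p = 0.0558). That on 242903_at was lost without the untreated array (limma adjusted p = 0.0613), without the 72 h array (limma adjusted p = 0.139) and with the bioC level as a covariate (limma adjusted p = 0.0613). It was also lost on a scale of log2 hours (limma adjusted p = 0.0774) and within the 4, 24, 48 and 72 h arrays (limma adjusted p = 0.0934).

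IFNGR2, the chain that joins IFNGR1 for signalling, was strongly read on all 6 arrays, over a range of 1.35. Its probe set read 9.10, 8.48, 9.27, 9.38, 9.32 and 9.83 (201642_at), with the lowest value at 4 h and the highest at 72 h, 1.65-fold above untreated. The slope of 0.18 ± 0.06 did not pass (SE, limma adjusted p = 0.0959), but passed with the bioC level as a covariate (limma adjusted p = 0.0391). With the mean of the untreated and 4 h arrays as the baseline, the 72 h difference was 1.04 rather than 0.73. Without the 4 h dip, the first 4 remaining values spanned 9.10 to 9.38.

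IFNAR2, the high-affinity chain of the type I receptor, was read by 3 probe sets. In time order 204785_x_at read 7.06, 7.19, 7.31, 7.62, 7.66 and 7.82, a rise at every step to 1.70-fold. The values of 204786_s_at went from 5.97 to 6.55 (1.5-fold) and those of 227125_at from 6.08 to 7.07 (1.99-fold). In the last, the first 4 arrays lay between 6.01 and 6.15 and the 48 and 72 h arrays were the highest.

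Of these 3, only 204785_x_at passed the trend test, and x_at probe sets are prone to reading related transcripts. Its slope was 0.16 ± 0.04 per step (SE, limma adjusted p = 0.0398). That call held in 2 of 14 alternatives and was lost whichever array was left out, with adjusted p between 0.0604 and 0.172. The slopes were 0.10 ± 0.04 for 204786_s_at (limma adjusted p = 0.130) and 0.19 ± 0.06 for 227125_at (limma adjusted p = 0.0612). All 3 differences at 72 h were positive as deposited and with either shift of the controls, but with the shift that left out bioC they were 0.20, 0.02 and 0.43.

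IFNAR1, the second chain of the type I receptor, had 4 probe sets and no called trend. The better read ones were 225669_at, at 5.82, 5.52, 5.79, 6.12, 6.35 and 6.33, and 225661_at, at 5.46, 5.07, 5.68, 5.68, 5.79 and 5.72. At 72 h they were 1.42- and 1.19-fold above untreated. Their slopes were 0.15 ± 0.05 (SE, limma adjusted p = 0.0725) and 0.10 ± 0.05 (limma adjusted p = 0.237). The direction of these small 72 h differences depends on scaling, since with the shift that left out bioC they became -0.05 and -0.31.

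The other IFNAR1 probe sets were near the filter. Values of 236478_at lay between 3.77 and 4.48 and those of 204191_at between 3.37 and 4.08, with no order in time (limma adjusted p = 0.846 and 0.946). No IFNAR1 probe set differed 2-fold from untreated on any array.

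**Figure D3:**
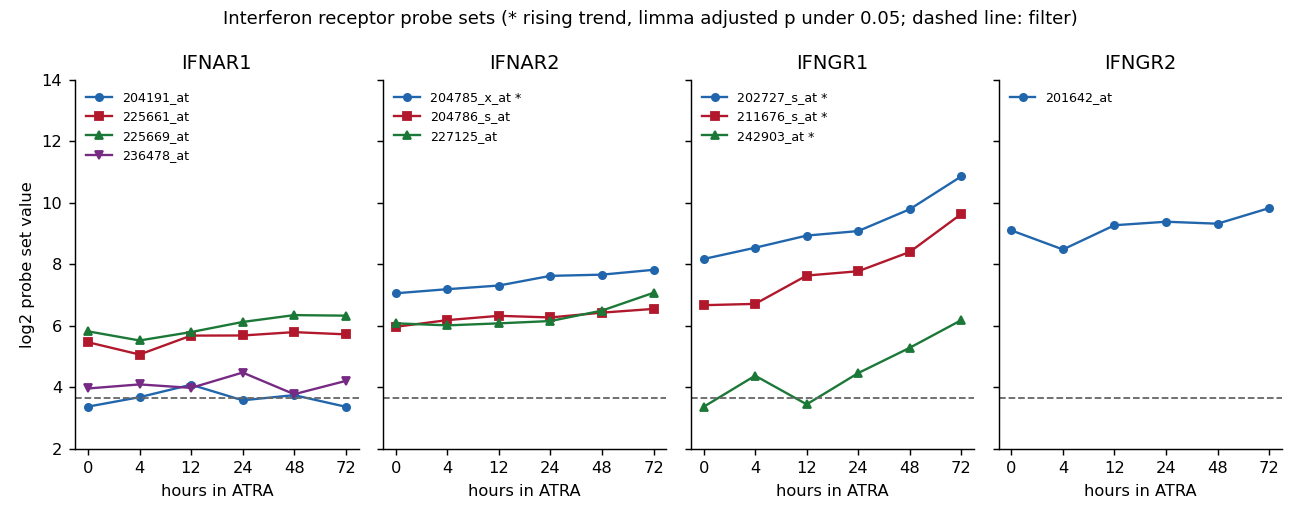
Log2 values (y axis) of the 11 receptor probe sets by hours in ATRA (x axis), 1 panel per gene and 1 point per array, with the filter at 3.66 as a dashed line and an asterisk on probe sets with a rising trend (limma adjusted p under 0.05). The 3 IFNGR1 probe sets climb by 2.69 to 2.97 between 0 and 72 h, and no probe set of the other receptors reaches a difference of 1.

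Over the 14 kept member probe sets, limma called 4 rising and 0 falling, where 7.47% of all kept probe sets rose and 9.68% fell. The 4 were the 3 of IFNGR1 and 1 of IFNAR2, probe sets of only 2 genes. At an unadjusted limma p under 0.05, 8 of the 11 receptor probe sets had a rising slope and 0 a falling one. Of all 25189 kept probe sets, 3346 had a rising and 4896 a falling one at that threshold. The 11 read only IFNAR1, IFNAR2, IFNGR1 and IFNGR2 on the same 6 arrays, so they are not independent. At 72 h 5 member probe sets were 2-fold or more higher and 0 lower, those of IFNA1, IFNB1 and IFNGR1, against 10.8% and 12.8% of all kept probe sets. IFNA1 and IFNB1 were kept only through that array, so their place in this count says nothing further. Of 9 receptor probe sets at or above the filter on all 6 arrays, 2 were among these.

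The other receptors of the same class II cytokine family were compared by their own values. IL10RB, shared by the receptors of interferon lambda and interleukin 10, read 6.86, 7.40, 7.62, 7.80, 8.21 and 8.63 (209575_at) and rose by 0.33 ± 0.04 per step (SE, limma adjusted p = 0.00480). IL10RA, the other interleukin 10 receptor chain, read 3.49, 3.55, 3.90, 4.20, 5.29 and 8.29 (204912_at) and rose by 0.84 ± 0.18 per step (limma adjusted p = 0.0207). Most of its increase fell between 48 and 72 h.

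IFNLR1, the chain specific to interferon lambda, had 1 probe set at 3.74 to 4.47 without a trend (1555499_a_at, limma adjusted p = 0.901) and another that stayed under the filter. The best-read probe sets of IL20RA (-0.02), IL20RB (0.16) and IL22RA1 (-0.03), for interleukins 20 and 22, were within 1.5-fold of untreated at 72 h, and IL22RA2 was under the filter. In all 2 of 6 kept genes of this list rose and 0 fell, where 8.02% of all kept genes rose and 9.54% fell, each gene being read from its brightest probe set on average.

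The signalling proteins next to the receptors followed several courses. Of 8 listed genes 5 were kept, of which IRF9, JAK2 and TYK2 rose and none fell, against 8.02% and 9.54% of all kept genes. IRF9, the DNA-binding part of the complex activated by type I interferon, stood 1.18 above untreated at 24 h, 4.20 after 48 h and 5.19 after 72 h. JAK2, a kinase bound to IFNGR2, was higher by 3.83 at 72 h and TYK2, bound to IFNAR1, by 1.18. STAT3 (0.51) and JAK1 (0.48) had no called trend. The list's median difference at 72 h was 1.18, where that of all kept genes was -0.06.

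Feedback regulators of these receptors gave 3 rising and 1 falling of 9 genes (8.02% and 9.54% of all kept genes), with a median of 0.50 at 72 h. USP18, which binds IFNAR2 and blocks its signalling, stood 4.14 above untreated after 48 h and 7.08 after 72 h. ISG15, a ubiquitin-like protein that stabilises USP18, was higher by 4.62 and 6.24. The phosphatase PTPN6 was higher by 1.56 at 72 h, while its relative PTPN11 fell by 1.02 over the same time. SOCS1, an inhibitor of JAK kinases, was higher by 2.72 at 72 h without a called trend (limma adjusted p = 0.104).

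Several sensors and factors that act upstream of the ligand genes were already higher at 48 h. Of 20 listed genes 18 were kept, and 7 rose and 0 fell (8.02% and 9.54% of all kept genes), with a median of 0.68 at 48 h and 1.07 at 72 h. IRF7, the factor that drives most interferon alpha genes, exceeded its untreated value by 1.02 after 24 h, 3.83 after 48 h and 5.59 after 72 h. The RNA sensors IFIH1 and RIGI were higher by 3.80 and 3.15 at 48 h and by 5.79 and 5.55 at 72 h. TLR3, a receptor for double-stranded RNA, read 3.78 at 48 h and 7.28 at 72 h.

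STING1, the adaptor of the cytosolic DNA pathway, differed from these in its timing, at 1.86 above untreated by 4 h and 2.81 by 12 h. MYD88, the adaptor of most Toll-like receptors, exceeded untreated by 2.42 after 48 h and 3.83 after 72 h, and DHX58, a relative of RIGI, by 1.20 and 2.49. IRF3 (0.15) and MAVS (0.09), which start the first wave of IFNB1 transcription in virus-infected cells, lay within 1.5-fold of untreated at 72 h. Several genes of this list, IRF7, IFIH1 and RIGI among them, are themselves interferon-stimulated.

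Most genes known as targets of type I interferon were 2-fold higher on the 48 h array, where no ligand probe set was. Their median difference over 16 genes was 0.06 and 0.09 on the 12 and 24 h arrays, 3.98 on the 48 h array and 7.37 on the last, or 6.88 with untreated values under the filter set to 3.66. At 48 h 13 of 16 were 2-fold or more higher, against 5.83% of all kept genes, and at 72 h all 16, against 10.9%. IFIT3 and IFI6, an interferon-induced mitochondrial protein, were 2-fold higher earlier, with differences of 1.57 and 1.08 on the 4 h array and 2.15 and 2.14 on the 24 h array. At 48 h no interferon ligand probe set was 2-fold higher, and IFNA1 and IFNB1 read 2.89 and 2.55, under the filter. Both values lay within the 48 h range of the genes restricted to other tissues, 1.86 to 5.72. A ligand rise hidden in background by 48 h would not be seen, so the order of ligands and targets was not tested.

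The largest of the type I targets at 72 h were IFI27 (9.0), IFIT3 (8.70), IFI44 (8.48), IFIT2 (8.36) and IFIT1 (8.33). At 48 h these were already higher by 3.48, 7.03, 4.30, 5.07 and 6.17. The 3 not 2-fold higher at 48 h were RSAD2 (0.76), MX2 (0.57) and MX1 (0.35), which were higher by 7.12, 2.46 and 3.62 at 72 h. In the trend test 12 of 16 rose and none fell, where 8.02% of all kept genes rose.

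Genes known to respond to interferon gamma began earlier in part. Of 16 listed, 12 were kept, with medians of 0.50 and 0.71 on the 4 and 24 h arrays, 1.70 on the 48 h array and 4.03 on the last (3.94 with that floor), and 10 rose and 0 fell, against 8.02% and 9.54% of all kept genes. ICAM1, an adhesion molecule, exceeded untreated by 2.93 after 4 h and 6.04 after 72 h, and IRF1, a transcription factor induced by interferon gamma, by 2.48 and 3.73. The chemokine CXCL10 was higher by 8.99 at 72 h, GBP1 by 7.36 and CD274, which encodes PD-L1, by 6.67. CIITA, the activator of MHC class II genes (-0.17), and IDO1 (0.39), an enzyme that degrades tryptophan, were under 2-fold, while CD74 was higher by 3.54. Several of these genes also respond to type I interferon and to NF-kappaB, and IFNG itself was under the filter.

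**Figure D4:**
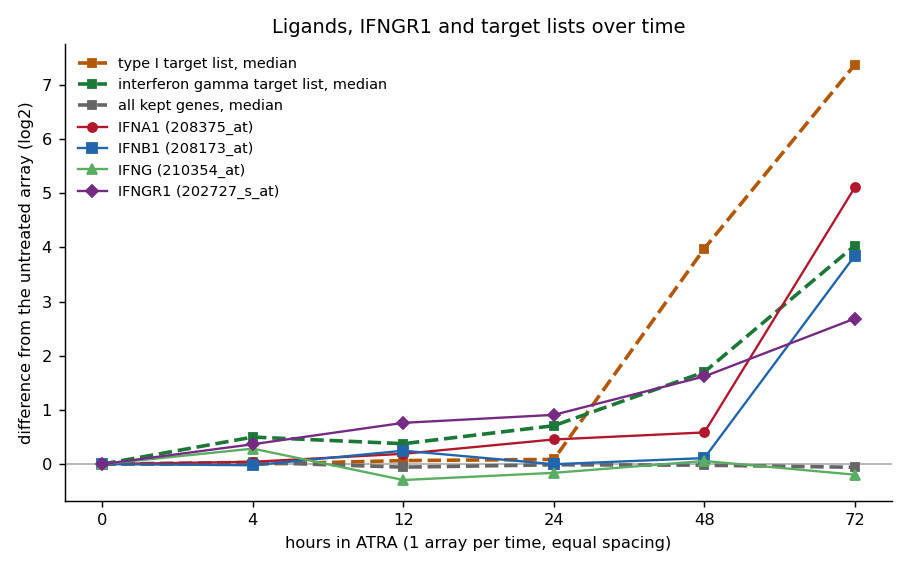
Difference from the untreated array on the log2 scale (y axis) by hours in ATRA (x axis, equally spaced) for IFNA1, IFNB1, IFNG and IFNGR1 (1 probe set each, solid lines) and for medians over the kept genes of the target lists and of all kept genes (dashed lines), 1 array per time. The type I target median reaches 3.98 at 48 h, when IFNA1 is at 0.58 and IFNB1 at 0.11, and IFNGR1 climbs from 0.37 at 4 h to 2.69 at 72 h.

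Other genes with courses most like those of the members were listed by Pearson r over the 6 arrays among 8150 kept probe sets with a range of 1 or more. With so few points, and a single high array for the ligands, values near 1 are common and describe shape alone. For IFNA1 the closest were the antiviral GTPase MX1, the growth factor BMP2 and the scavenger receptor CD36 (each r = 0.998). For IFNB1 they were the chemokine CCL8 (r = 0.999), FCGR3B, a neutrophil Fc receptor, and HAVCR2, the checkpoint receptor TIM-3 (each r = 0.998). For IFNGR1 (202727_s_at) they were TNFRSF14, TRIM38 and CXCR5 (each r = 0.999). All of these comparisons share the same 6 arrays.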

How the data were processed

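Total RNA of NB4 cells was hybridised to 1 Affymetrix array per time, labelled by one-cycle synthesis per the labels' protocols. Per the submitters' processing notes the authors used RMA, and the table they deposited is on the log2 scale. RMA's version and settings: not given in the sources used here. RMA makes the distributions of the arrays alike, so a shift of most transcripts would be hidden. The number of arrays limits the precision.

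Genes came from the platform annotation, with symbols updated through Entrez identifiers to the RefSeq table of GRCh38.p14. Probe sets with several genes entered no test. Kept probe sets reached the median of all values (3.66). A slope on time order 0 to 5 was tested with limma 3.58.1 (R 4.3.3), letting eBayes follow intensity, and called when its p, adjusted over all kept probe sets by Benjamini-Hochberg, was under 0.05. The 4 residual degrees of freedom come from departures from a line, not from replicates. The fit was also run on simulated data with independent noise around flat or straight courses. Those data hold no late steps or array-wide shifts, so they do not show that the calls are sound here. Differences of single arrays were counted at 2-fold and have no p-value.

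Members and lists were chosen with earlier results of these data known. All member genes and all genes of the lists of other ligands and class II receptors were named; of other lists, up to 5 with the largest 72 h difference and members needed to spell out small counts. STING1, DHX58, IRF1, IFI6, GNLY, CSF1R, IRF3, MAVS and CD74 were named after their values were seen. Of the 8 member genes, 7 had a RefSeq promoter window; IFNAR2 is the other. Alternatives covered the filter, 1 probe set per gene, x_at probe sets, shifts to spiked controls, the time scale, the bioC level, the baseline and each array left out.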

Additional observations from a re-analysis of the deposited data

How the results depend on the processing

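The 4 rising member probe sets became 2 with 1 probe set per gene, 2 with log2 hours as the time scale and 1 within the 4, 24, 48 and 72 h arrays, and lay between 2 and 4 with 1 array left out, with 2 without the untreated array and 2 without the 72 h array. It became 5 with the filter at percentile 75, which added IFNAR2 227125_at (limma adjusted p = 0.0421), and 5 with the shift on all controls, which added IFNA1 and IFNB1 and lost IFNAR2 204785_x_at. No alternative gave a falling one. The 5 probe sets that were 2-fold higher at 72 h became 3 with 1 probe set per gene, 11 with the shift on all hybridisation controls 9 at a 1.5-fold threshold and 7 with the mean of the untreated and 4 h arrays as the baseline. That shift moves every 72 h difference by 0.66 and the shift without bioC moves it by -0.56. Only trends of IFNAR1 changed sign, none of them called. The slope of 204191_at, -0.01 as reported, was 0.14 with the shift on all controls, 0.015 on log2 hours and 0.013 with the bioC covariate, and lay between -0.096 and 0.065 with 1 array left out, positive without the 12 h and without the 72 h array. The slope of 236478_at, 0.02 as reported, was -0.066 with the shift without bioC and -0.016 within the 4, 24, 48 and 72 h arrays. The trend of IFNA1 was called in 3 of 15 alternatives, with each control shift and without the 48 h array. Over all kept probe sets 1881 rose and 2439 fell, with 596 and 357 without the 72 h array, while shifting on all controls gave 1940 and 70, and leaving bioC out of the shift gave 1220 and 5683. No paired analysis was possible because each time has 1 array and the labels carry no replicate numbers. The 72 h ligand values rest on 1 array, and signals near 3.66 cannot be told from background.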

Other observations

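Interferon and receptor genes sit in clusters, and their neighbours were read from the RefSeq gene order of GRCh38.p14. The type I genes lie on chromosome 9, with KLHL9, which encodes a ubiquitin ligase adaptor and no interferon, among them. The 4 probe sets of KLHL9 differed by -0.46 to 0.23 at 72 h. IFNA2, IFNA8 and IFNA1, which lie on one side of it, were higher by 3.28 to 5.11. So was IFNB1, at the far end on the other side. These genes were picked for their high 72 h values. IFNE, on the side of IFNA1, differed by -0.23. The other measured interferon genes on the side of IFNB1 differed by -0.26 (IFNA16) to 1.02 (IFNA21). IFNW1, next to IFNB1 among the measured genes, differed by 0.07.

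On chromosome 21 the receptor genes stand in the order IFNAR2, IL10RB, IFNAR1 and IFNGR2, and a long noncoding RNA, IL10RB-DT, lies between IFNAR2 and IL10RB. It was picked after its values were seen. Its probe set 230631_s_at read 5.15, 5.14, 6.02, 6.59, 7.11 and 7.47 in time order and rose by 0.52 ± 0.05 per step (SE, limma adjusted p = 0.00163). A second, 230632_at, rose by 0.50 ± 0.04 (limma adjusted p = 0.000863) and was 4.93-fold higher at 72 h. IL10RB was higher by 1.76 and the 4 probe sets of IFNAR1, the next coding gene, by at most 0.51.

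HERC5, the ligase that attaches ISG15 to proteins, went the other way before it joined the type I targets. Its differences from untreated were -0.80, -1.68 and -2.51 on the 4, 12 and 24 h arrays and then 1.77 and 4.89 on the 48 and 72 h arrays, and its trend was not called (limma adjusted p = 0.166). It was picked after its values were seen.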
